A study of Mus musculus with 16 samples.

Results

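The 10 genes described here are the Reg family lectins Reg3a, Reg3b, Reg3g and Reg4, the peroxide-producing oxidase Duox2 with its maturation factor Duoxa2, the inducible nitric oxide synthase Nos2, the acute-phase protein Saa1, the siderophore-binding protein Lcn2 and the IgA transporter Pigr. They were chosen by name, as epithelial defence genes that respond to microbes and to the cytokine IL-22, and all 10 were found among the 41740 genes listed in each of 16 ileal RNA-seq libraries. The libraries came from male STAM mice on a C57BL/6J background, in which diabetes and fatty liver disease are induced with streptozotocin at day 2 of life and, from 4 weeks, high-fat feeding, so that no group was free of either agent. All mice carried floxed insulin receptor (Insr) alleles. The 4 mice of Control-STAM-nonINS had no Villin-Cre and no insulin, the 6 of Control-STAM-INS had no Villin-Cre and were given insulin, and the 6 of ieIRKO-STAM-INS carried Villin-Cre, which acts in the intestinal epithelium, and were given insulin. The study's methods describe insulin injected 2 times a day from the age of 6 weeks and raised to 12 U/kg, with saline for the mice without insulin, and an examination at 20 weeks, which the labels do not tie to these libraries. RNA was taken from the whole ileal wall, which holds immune cells, muscle and nerve beside the epithelium.

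The gut epithelium keeps bacteria at a distance with secreted proteins that it makes in larger amounts when microbes are close. Immune cells of the lamina propria release IL-22, which acts on the receptor Il22ra1 with Il10rb on epithelial cells and signals through JAK kinases and Stat3, and IL-17, which acts together with it. Reg3b and Reg3g are C-type lectins that bind bacterial cell walls, Duox2 with Duoxa2 releases hydrogen peroxide at the apical surface, Saa1 carries retinol and promotes IL-17 responses, Lcn2 withholds iron from bacteria, and Pigr carries dimeric IgA into the lumen.

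Library totals ran from 13288018 to 22215382 counts, and each of the 10 genes passed the filter on low counts, from Lcn2 with 27 to 171 counts per library to Reg3b with 112125 to 483834. Levels are given as CPM, the counts scaled to a common library size after TMM normalization, and adjusted p-values are from edgeR's quasi-likelihood test with Benjamini-Hochberg adjustment over 15267 genes. Insr, which the knockout label names, stood at 62.7 ± 10.1 CPM (SD, n = 6) in Control-STAM-INS and was no lower under that label, where it stood at 67.2 ± 13.4 CPM (SD, n = 6), with a log2 fold change of 0.10 (SE 0.13, edgeR adjusted p = 0.805). In Control-STAM-nonINS it stood at 105 ± 12.3 CPM (SD, n = 4). The counts cover the whole gene and the position of the floxed part is not given in the sources used here, so this value does not check the deletion. The group is therefore called here by the label ieIRKO-STAM-INS alone, and every direction drawn from it rests on that label. The libraries had the epithelial markers of ileum, with summed levels of 10 enterocyte markers at 9698 to 41012 CPM and of 7 goblet cell markers at 7609 to 11535 CPM. A pair of libraries stood apart from the rest of their groups in the former, as seen after their values were known. Control-STAM-nonINS replicate 4 had the lowest level of its group in 7 of the 10 enterocyte markers, with 809 CPM of Krt20, a keratin of mature enterocytes, against 2402 to 2817 CPM. Its sum, 23870 CPM, was the lowest of its group but close to the 23933 CPM of Control-STAM-INS replicate 5, itself the lowest of its group in 5 markers. ieIRKO-STAM-INS replicate 5 had the lowest of its group in all 10, with a sum of 9698 CPM against 22776 to 41012 CPM. Values without Control-STAM-nonINS replicate 4 or ieIRKO-STAM-INS replicate 5 are given beside the results they bear on, and the part of the marker difference in those results was not tested.

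Reg3b, Reg3a and Reg3g lie in a cluster of 6 Reg genes within 98.2 kb of chromosome 6 (GRCm38, 78370657 to 78468872). The other Reg genes of that cluster were close to silent, with at most 19 counts per library for Reg3d, 2 for Reg2 and 55 for Reg1. Reg4 lies apart, at chr3:98222156-98236748 on the plus strand. Duox2 (chr2:122279247-122298449, minus strand) and Duoxa2 (chr2:122298900-122302885, plus strand) stand head to head with 450 bases between them in the GENCODE M21 annotation. The others are Nos2 (chr11:78920787-78960254), Saa1 (chr7:46740497-46742980), Lcn2 (chr2:32384633-32388252) and Pigr (chr1:130826684-130852249), and all 10 are annotated as protein coding. The start-site windows of Reg3b, Reg3g, Duox2, Duoxa2 and Reg4 are printed because the first 4 form pairs that varied together across mice and Reg4 showed the clearest group difference. For Reg3b and Duox2 the RefSeq start used for the window lies inside the GENCODE M21 gene, so the bases before it are partly within that gene. Each window is RefSeq sequence of GRCm38.p6, from 250 bases before to 50 bases after the RefSeq start, on the gene's own strand, and capitals mark matches to TTCNNNGAA, the core of STAT sites (searched on both strands), and to TATAAA (searched on the gene's strand).
Reg3b, chr6:78370635-78370934, plus strand: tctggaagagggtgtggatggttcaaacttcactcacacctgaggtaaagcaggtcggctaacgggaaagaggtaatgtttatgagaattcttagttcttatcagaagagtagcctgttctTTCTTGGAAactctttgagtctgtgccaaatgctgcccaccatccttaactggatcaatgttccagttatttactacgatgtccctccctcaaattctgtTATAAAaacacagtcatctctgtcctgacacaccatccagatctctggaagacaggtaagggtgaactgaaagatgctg
Reg3g, chr6:78468825-78469124, minus strand: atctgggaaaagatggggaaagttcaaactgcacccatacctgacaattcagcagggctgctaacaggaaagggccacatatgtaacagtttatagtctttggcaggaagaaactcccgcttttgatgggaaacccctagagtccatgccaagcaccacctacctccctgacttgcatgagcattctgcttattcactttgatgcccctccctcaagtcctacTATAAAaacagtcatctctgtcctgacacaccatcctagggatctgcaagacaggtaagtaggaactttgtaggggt
Duox2, chr2:122298178-122298477, minus strand: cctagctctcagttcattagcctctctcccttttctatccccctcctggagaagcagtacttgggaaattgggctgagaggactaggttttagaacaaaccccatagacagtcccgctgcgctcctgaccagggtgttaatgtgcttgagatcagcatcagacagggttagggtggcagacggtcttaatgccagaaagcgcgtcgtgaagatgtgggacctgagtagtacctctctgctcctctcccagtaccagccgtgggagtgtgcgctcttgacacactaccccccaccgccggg
Duoxa2, chr2:122298650-122298949, plus strand: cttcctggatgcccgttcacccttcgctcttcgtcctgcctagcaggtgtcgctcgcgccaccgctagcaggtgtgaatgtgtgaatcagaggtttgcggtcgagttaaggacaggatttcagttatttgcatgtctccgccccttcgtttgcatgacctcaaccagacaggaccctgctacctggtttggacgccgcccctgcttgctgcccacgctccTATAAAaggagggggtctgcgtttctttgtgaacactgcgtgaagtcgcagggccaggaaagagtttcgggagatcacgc
Reg4, chr3:98221906-98222205, plus strand: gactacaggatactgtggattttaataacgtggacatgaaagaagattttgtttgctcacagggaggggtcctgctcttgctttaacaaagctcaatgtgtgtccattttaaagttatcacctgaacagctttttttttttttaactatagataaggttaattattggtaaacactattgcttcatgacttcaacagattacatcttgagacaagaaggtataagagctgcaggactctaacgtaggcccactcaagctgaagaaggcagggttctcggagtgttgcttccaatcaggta

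The Reg3b and Reg3g windows were 68.6% identical in a global alignment and shared an unbroken run of 29 bases, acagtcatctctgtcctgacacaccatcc, that began 20 bases before the start in both. Reg3b held TTCTTGGAA at -129 to -121, counted from the start, and TATAAA at -29 to -24, and Reg3g held TATAAA at -27 to -22 without a match to TTCNNNGAA. Among the 9 members with a window, TTCNNNGAA was found in 2, Reg3b and Pigr, against 8.30% of 32851 RefSeq windows of this length, and TATAAA in 3, Reg3b, Reg3g and Duoxa2, against 8.32%. An NF-kB motif, GGG and TTTCC with any 2 bases between them, was searched on both strands and was in 1.63% of all windows and in 0 of the 9. These are matches of letters and were not tested as binding sites.

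The Reg3 lectins Reg3b and Reg3g were among the most abundant transcripts of the ileum in every group, and 1 member, Reg4, fell with insulin. In Control-STAM-INS against Control-STAM-nonINS, 0 members were called higher, where 3.73% of all genes tested were, and 1 was called lower, where 6.76% were (10.5% in either direction), so the members were called about as often as other genes. Between the insulin-treated groups, edgeR called 0 of the 10, where it called 0.223% of all genes (0.0393% higher and 0.183% lower). In DESeq2, 0 of the 10 passed there. An unadjusted edgeR p under 0.05 was found there for 0 of the 10, beside 1721 of the 15267 genes tested. With insulin among controls it was found for 5 of the 10, beside 3872 genes. For the ieIRKO-STAM-INS-labelled libraries against Control-STAM-nonINS it was also found for 5 of the 10, beside 4482 genes. Between the ieIRKO-STAM-INS-labelled libraries and Control-STAM-nonINS, Duox2 was called higher, where 5.74% of all genes were, and Reg4 lower, where 7.59% were, which makes 2 of 10 against 13.3% in either direction. In that last contrast genotype and insulin both differ and cannot be told apart, and it shares its reference libraries with the first. The median log2 fold change of the 10 was 0.39, 0.08 and 0.41 in the 3 comparisons in that order, beside 0.00, 0.02 and 0.01 over all genes tested.

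**Figure D1:**
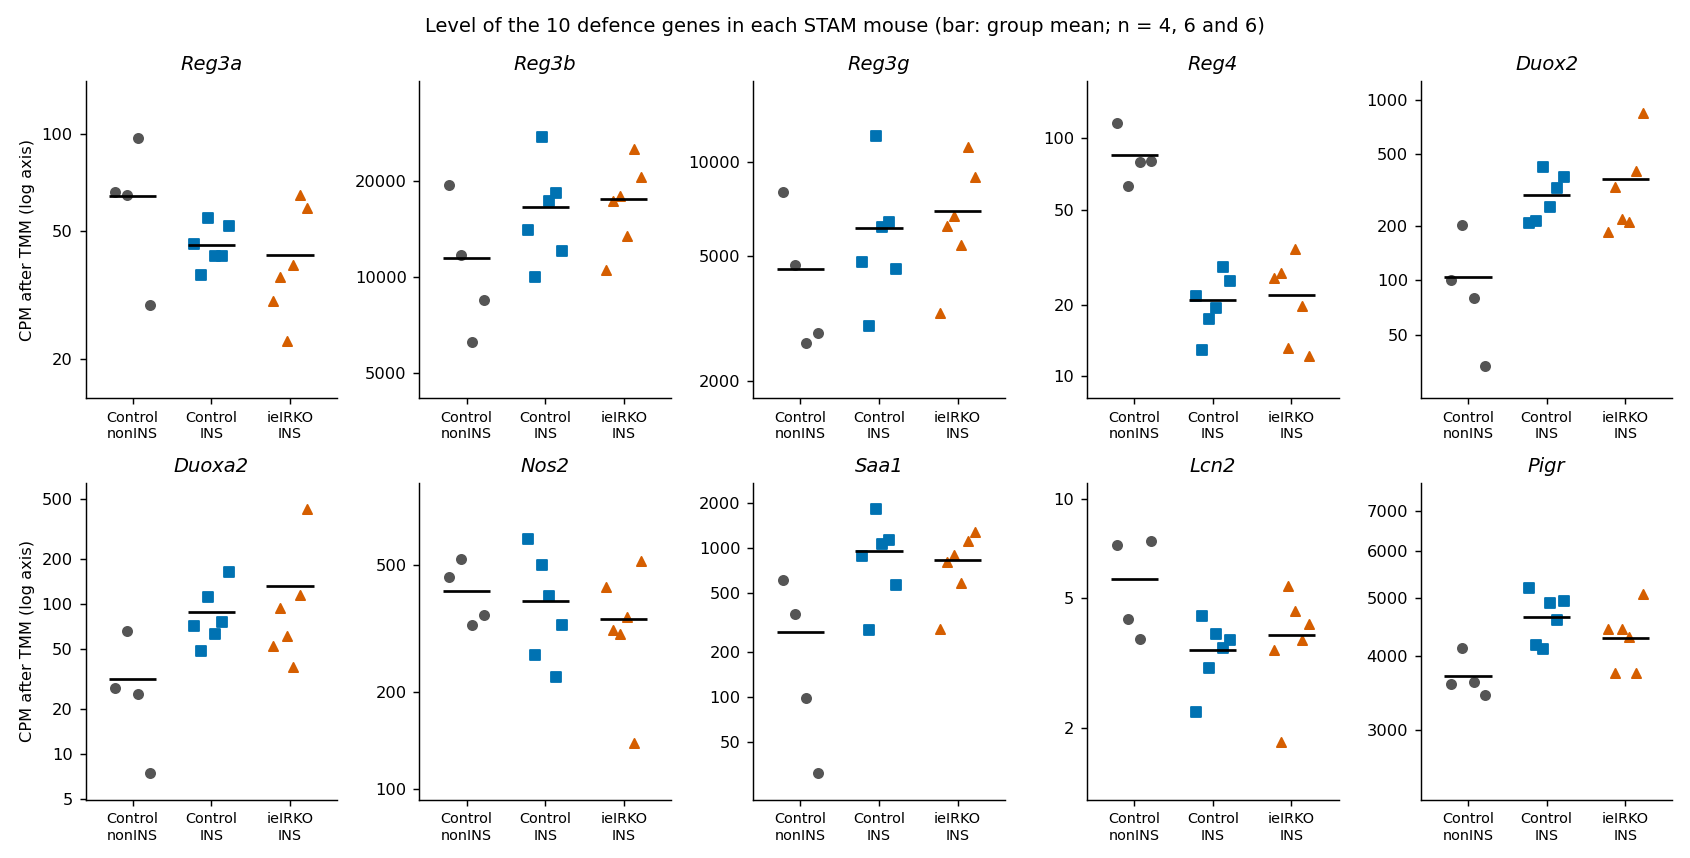
Each panel shows 1 gene, with its level in CPM after TMM on a log axis and 1 point per mouse in the 3 groups (4 mice without insulin, 6 controls with insulin, 6 labelled ieIRKO-STAM-INS), and bars at the group means. Reg4 in both groups given insulin lies wholly below the 4 mice without it, Duox2 of Control-STAM-INS lies wholly above them, and in every other panel the groups overlap.

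Per kilobase of exon, the mean level over the 16 libraries was 13738 CPM for Reg3b, 2864 for Reg3g, 1063 for Pigr, 297 for Saa1, 85.1 for Nos2, 59.0 for Reg3a, 56.8 for Duoxa2, 40.8 for Duox2, 36.4 for Reg4 and 1.59 for Lcn2. Reg3b alone took 0.593% to 2.80% of all counts and was the gene with the most counts in 7 libraries and the second in another 7. Together, Reg3a, Reg3b and Reg3g took 0.853% to 4.04%. No stretch of 50 bases was shared between the exons of these 3 lectin genes, so reads of that length tell them apart.

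Reg3b, a bactericidal lectin, stood at 19483, 11777, 6271 and 8473 CPM in the 4 Control-STAM-nonINS mice. It ran from 9994 through a median of 15693 to 27553 CPM in Control-STAM-INS, and from 10552 through 17683 to 25374 CPM in the ieIRKO-STAM-INS-labelled libraries. All groups overlapped, and replicate 1 was the highest of the mice without insulin. The log2 fold change with insulin was 0.53 (SE 0.32, edgeR adjusted p = 0.328), and that between the labelled knockout and Control-STAM-INS was 0.08, with a 95% interval from -0.47 to 0.64. The former ran from 0.32 without Control-STAM-INS replicate 3 to 0.91 without Control-STAM-nonINS replicate 1, and was 0.33 without Control-STAM-nonINS replicate 3.

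Reg3g, its close relative, which acts on Gram-positive bacteria, was at 8002, 4696, 2649 and 2855 CPM in Control-STAM-nonINS. The treated controls ran from 3004 through 5485 to 12040 CPM and the ieIRKO-STAM-INS-labelled libraries from 3283 through 6468 to 11118 CPM. The same mouse was thus highest among the mice without insulin for both lectins, and no group stood apart. The log2 fold change was 0.44 (SE 0.40, edgeR adjusted p = 0.543) with insulin and 0.17 (95% interval -0.53 to 0.87) for the knockout label under insulin. The value with insulin ran from 0.13 without Control-STAM-INS replicate 3 to 0.86 without Control-STAM-nonINS replicate 1, and was 0.26 and 0.27 without Control-STAM-nonINS replicates 3 and 4. Without ieIRKO-STAM-INS replicate 5, the value for the knockout label was -0.01 for Reg3g and -0.05 for Reg3b. The interval of Reg3g reaches up to a 1.83-fold rise and so does not show that the groups were alike.

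Reg3a is the third lectin of the cluster. Its 4 values without insulin were 66.0, 64.3, 97.3 and 29.4 CPM, against 36.3 to 54.7 CPM (median 43.5) in Control-STAM-INS and 22.6 to 64.5 CPM (median 37.5) in the ieIRKO-STAM-INS-labelled libraries. The log2 fold change with insulin was -0.50 (SE 0.30, edgeR adjusted p = 0.318). Against the mice without insulin, the labelled knockout gave -0.61 (SE 0.30, edgeR adjusted p = 0.187), which became -0.86 (edgeR adjusted p = 0.0482) without Control-STAM-nonINS replicate 4, the lowest of the mice without insulin, and -0.34 (edgeR adjusted p = 0.522) without replicate 3, the highest. The same omissions took the value with insulin to -0.75 and -0.23 (edgeR adjusted p = 0.107 and 0.712).

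Reg4, a lectin of secretory epithelial cells, was the member that fell. The 4 Control-STAM-nonINS mice were at 115, 62.8, 79.4 and 79.7 CPM. The 6 Control-STAM-INS mice ran from 12.9 through 20.5 to 28.6 CPM, and the 6 ieIRKO-STAM-INS-labelled libraries from 12.2 through 22.8 to 34.2 CPM. All 12 mice given insulin lay below all 4 without it. The fall with insulin in controls was 4.03-fold, with a log2 fold change of -2.01 (SE 0.28, edgeR adjusted p = 0.000509). An exact two-sided permutation test over 210 arrangements gave p = 0.00476, the smallest it can give, with an adjusted permutation p of 0.0476. In the labelled knockout the log2 fold change against the mice without insulin was -1.94 (SE 0.27, edgeR adjusted p = 0.000648). Between the groups given insulin it was 0.07 (95% interval -0.43 to 0.57), and its sign changed when Control-STAM-INS replicate 2 or ieIRKO-STAM-INS replicate 4 was left out. Of all genes, 6.23% lay wholly lower in the first contrast (10.6% in either direction) and 4.76% in the second (8.56% in either direction).

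Some enteroendocrine markers were lower beside Reg4. Of 8, 5 were lower with insulin among controls, where 6.76% of all genes were, led by Tph1, the serotonin-synthesis enzyme of enterochromaffin cells, at -2.10 (SE 0.34, edgeR adjusted p = 0.00100) and Chgb, a granule protein, at -1.84 (SE 0.36, edgeR adjusted p = 0.00540). Chga, Neurod1 and Gcg were the other 3, and their calls were lost without Control-STAM-nonINS replicate 1, with that of Neurod1 also lost without replicate 4 and that of Gcg under 7 of 10 omissions. The median log2 fold change of the 8 was -0.94, and their summed level ran from 195 to 352 CPM in Control-STAM-nonINS, from 120 to 208 CPM among controls with insulin and from 120 to 216 CPM in the ieIRKO-STAM-INS-labelled libraries. Of the 7 goblet cell markers, 0 passed in any comparison. Of 8 Paneth cell markers, 1 was higher with insulin, Itln1, an intestinal lectin, at 1.39 (SE 0.29, edgeR adjusted p = 0.00615), and 0 lower, beside 3.73% and 6.76% of all genes. Without Control-STAM-nonINS replicate 4, the library low in enterocyte markers for its group, the log2 fold change of Reg4 with insulin was -2.04 (edgeR adjusted p = 0.00178). None of these lists has Reg4 in it, and the part of the marker shift in the fall of Reg4 was not tested. In whole-wall RNA, fewer cells of a type and less RNA per cell cannot be told apart.

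Duox2 and Duoxa2 are the enzyme and the factor that brings it to the cell surface, and of their fold changes only that of Duox2 between the ieIRKO-STAM-INS-labelled libraries and the mice without insulin passed in edgeR. Duox2 was at 101, 203, 80.3 and 33.4 CPM in Control-STAM-nonINS, at 207 to 424 CPM (median 290) in Control-STAM-INS and at 186 to 852 CPM (median 275) in the ieIRKO-STAM-INS-labelled libraries. All 6 Control-STAM-INS mice exceeded all 4 mice without it, as in 4.4% of all genes, though the lowest, at 207 CPM, lay just over the highest mouse without insulin, at 203 CPM. The log2 fold change with insulin was 1.53 (SE 0.51, edgeR adjusted p = 0.0728), short of the threshold. The exact two-sided permutation test gave p = 0.00476, the smallest value possible and the one that full separation gives, with an adjusted permutation p of 0.0476. DESeq2 gave an adjusted p of 0.0205, and edgeR without Control-STAM-nonINS replicate 2, the highest mouse without insulin, gave 0.0222.

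In the ieIRKO-STAM-INS-labelled libraries, Duox2 was higher than in the mice without insulin by 1.82 on the log2 scale (SE 0.52, edgeR adjusted p = 0.0333). Of the 6 libraries, 5 exceeded all mice without insulin, short of the full separation upward seen in 3.8% of all genes. The call was lost, with adjusted p from 0.0502 to 0.0890, when Control-STAM-nonINS replicate 1, 3 or 4 or ieIRKO-STAM-INS replicate 5 or 6 was left out, and without replicate 6 the log2 fold change was 1.38. It was also lost with only the 2 groups compared (adjusted p = 0.102), the replicate block (0.0685), no filter on low counts (0.0560) and without replicates 2 and 3 together (0.0559). Against Control-STAM-INS it was 0.29 (95% interval -0.55 to 1.14), and -0.15 without replicate 6.

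Duoxa2 followed the same mice, with 27.5, 66.3, 25.1 and 7.43 CPM in Control-STAM-nonINS, 48.7 to 163 CPM (median 73.8) in Control-STAM-INS and 38.2 to 427 CPM (median 77.1) in the ieIRKO-STAM-INS-labelled libraries. The highest value, 427 CPM, was again ieIRKO-STAM-INS replicate 6, and the lowest, 7.43 CPM, Control-STAM-nonINS replicate 4, the library low in enterocyte markers for its group. Without that library the log2 fold changes with insulin were 1.17 for Duoxa2, 1.23 for Duox2 and 1.43 for Saa1 (edgeR adjusted p = 0.391, 0.159 and 0.211). The log2 fold change of Duoxa2 with insulin was 1.51 (SE 0.73, edgeR adjusted p = 0.216), and ran from 1.17 to 2.17 when 1 library was left out. For the labelled knockout against the mice without insulin it was 2.07 (SE 0.75, edgeR adjusted p = 0.0820). The latter passed in 3 of 19 alternatives, with DESeq2 (adjusted p = 0.0201), with edgeR's likelihood ratio test (adjusted p = 0.0328) and without Control-STAM-nonINS replicate 2 (edgeR adjusted p = 0.0487). It fell to 1.20 (edgeR adjusted p = 0.167) without ieIRKO-STAM-INS replicate 6. Duoxa2 overlaps Duoxa1 on the other strand, and whether counting used strand is not given in the sources used here, but Duoxa1 had only 8 to 144 counts where Duoxa2 had 170 to 7274. Of the 50-base stretches of Duox2, 6.05% are also in Duox1, which had 1 to 6 counts per library.

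Saa1, a retinol-binding acute-phase protein made by the ileal epithelium, had the widest spread among mice without insulin, at 604, 358, 98.3 and 30.7 CPM. Control-STAM-INS ran from 283 through 969 to 1820 CPM and the ieIRKO-STAM-INS-labelled libraries from 286 through 853 to 1273 CPM. In each group given insulin, 4 of 6 mice exceeded all mice without insulin. The log2 fold change with insulin was 1.81 with a 95% interval from 0.39 to 3.23 (edgeR adjusted p = 0.132, DESeq2 adjusted p = 0.0489). It ran from 1.43 to 2.56 when 1 library was left out. That of the labelled knockout against Control-STAM-INS was -0.20 (95% interval -1.39 to 0.98). Of the 50-base stretches of Saa1, 31.1% are also in Saa2, so reads there can be split between them, although Saa2 had at most 38 counts per library.

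Nos2, which makes nitric oxide, did not part the groups. It was at 459, 522, 324 and 350 CPM in Control-STAM-nonINS, 224 to 602 CPM (median 363) in Control-STAM-INS and 139 to 514 CPM (median 329) in the ieIRKO-STAM-INS-labelled libraries. Its log2 fold change with insulin, -0.10 (SE 0.32, edgeR adjusted p = 0.882), changed sign without Control-STAM-nonINS replicate 2 or Control-STAM-INS replicate 5. The lowest Nos2 level, 139 CPM, was in ieIRKO-STAM-INS replicate 5, which had the highest Reg3b and Reg3g of its group and the lowest enterocyte markers. Without it the log2 fold change between the groups given insulin went from -0.18 to -0.02.

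Lcn2, the iron-withholding protein of epithelium and neutrophils, was scarce, at 7.23, 4.31, 3.75 and 7.48 CPM in Control-STAM-nonINS, 2.24 to 4.39 CPM (median 3.62) in Control-STAM-INS and 1.82 to 5.42 CPM (median 3.95) in the ieIRKO-STAM-INS-labelled libraries. It lay on the other side from Duox2 and Saa1, with a log2 fold change with insulin of -0.72 (SE 0.26, edgeR adjusted p = 0.0851) that did not pass. Markers of neutrophils, another source of Lcn2, summed to 0.870 to 2.62 CPM in every library, with Mpo at 0 in all groups, and 1 of 9 had counts enough to be tested.

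Pigr, the transporter of IgA, was the steadiest member, with 3591, 4131, 3615 and 3445 CPM in Control-STAM-nonINS, 4114 to 5202 CPM (median 4751) in Control-STAM-INS and 3741 to 5089 CPM (median 4370) in the ieIRKO-STAM-INS-labelled libraries. Its coefficient of variation within groups was 8.12% to 11.7%, against 29.7% to 54.5% for Reg3b and Reg3g. In Control-STAM-INS, 5 of 6 mice exceeded all mice without insulin, and the log2 fold change of 0.33 (SE 0.12, edgeR adjusted p = 0.0770) did not pass, while DESeq2 gave an adjusted p of 0.0147.

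**Figure D2:**
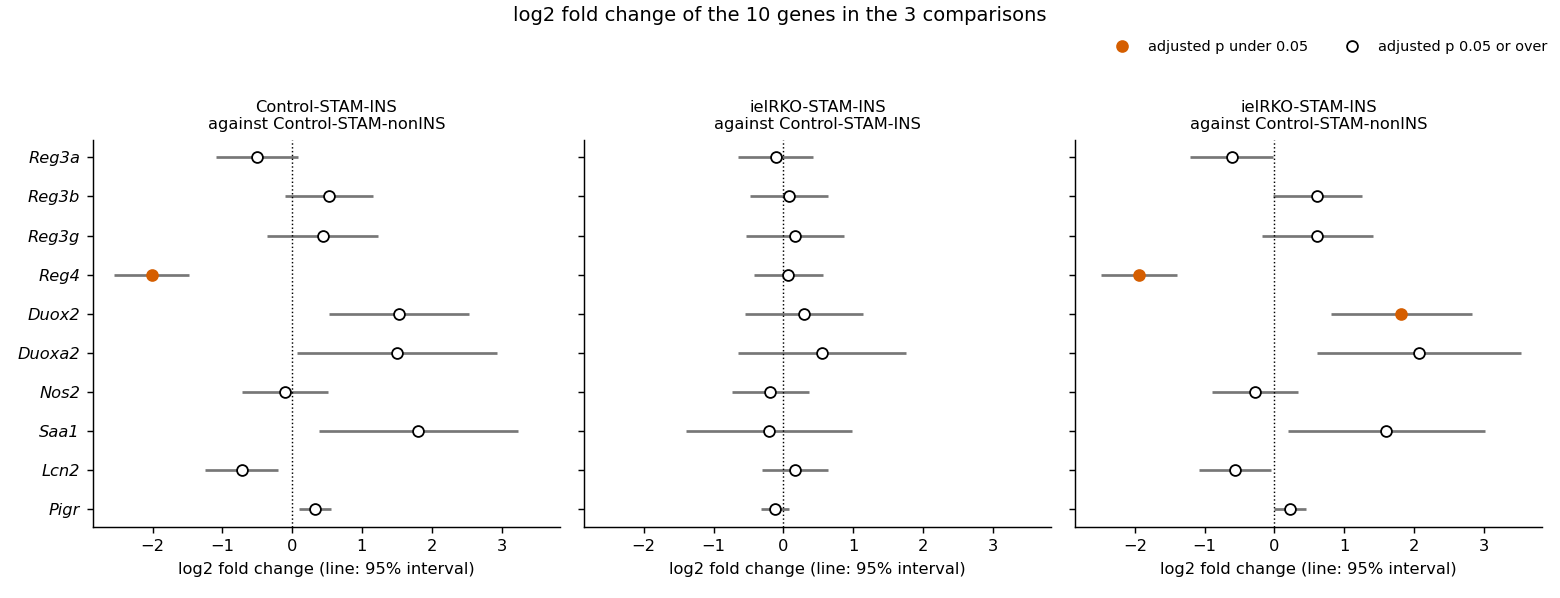
The log2 fold changes of the 10 genes are plotted with their 95% intervals for the 3 comparisons, with filled points where the edgeR adjusted p was under 0.05. Reg4 is filled at -2.01 and -1.94 and Duox2 at 1.82, while in the middle panel, between the groups given insulin, all 10 intervals cross 0. Intervals reach 1.96 SE to each side, so an interval clear of 0 can go with an unadjusted edgeR p over 0.05.

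Between the groups given insulin, the 10 log2 fold changes lay between -0.20 (Saa1) and 0.56 (Duoxa2), with 6 above 0 and 4 below. The tightest interval was that of Pigr, from -0.32 to 0.09, and the widest that of Duoxa2, from -0.64 to 1.76. No member had groups free of overlap, against 0.845% of all genes (0.439% higher and 0.406% lower), and 7 of the 10 fold changes, all but those of Nos2, Lcn2 and Pigr, changed sign under the omission of 1 library. In the same contrast, 4 of 8 Paneth cell markers were lower in the ieIRKO-STAM-INS-labelled libraries, where 0.183% of all genes were. Among the 4 was Lyz1, lysozyme of Paneth granules, at -2.31 (SE 0.18, edgeR adjusted p = 1.25e-06), with 362 to 721 CPM against 2014 to 3367 CPM. The calls of Lyz1, Ang4 and Clps passed under all 12 omissions of 1 library, and that of the fourth, Itln1, was lost under 9 of the 12, with the replicate block, with no filter on low counts and without ieIRKO-STAM-INS replicates 2 and 3. That shift stood beside a Reg3b and Reg3g level within the range of Control-STAM-INS.

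Across mice, some members rose and fell together once each group's mean was removed. Over the 16 libraries and 45 pairs of members, 4 pairs had adjusted permutation p-values under 0.05 for both Pearson's r and Spearman's rho, all positive. Reg3b and Reg3g gave r = 0.979 (permutation p = 1e-05, the smallest 100000 draws can give, adjusted p = 0.00045) and rho = 0.979 (permutation p = 1e-05, adjusted p = 0.00015), with r = 0.986 without the 2 libraries farthest from the median of Reg3b. Within the 3 groups r was 0.981, 0.988 and 0.984. Duox2 and Duoxa2, the head-to-head pair, gave r = 0.957 (permutation p = 3e-05, adjusted p = 0.00045) and rho = 0.968 (permutation p = 1e-05, adjusted p = 0.00015), and r = 0.919 without 2 libraries.

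Saa1 went with the lectins, although it lies on another chromosome. Reg3g and Saa1 gave r = 0.870 (permutation p = 2e-05, adjusted p = 0.00045) and rho = 0.941 (permutation p = 1e-05, adjusted p = 0.00015), with r = 0.860 without 2 libraries and 0.879, 0.945 and 0.951 within the groups. Reg3b and Saa1 gave r = 0.844 (permutation p = 0.00041, adjusted p = 0.00461) and rho = 0.912 (permutation p = 2e-05, adjusted p = 0.000225), with r = 0.819 without 2 libraries. Control-STAM-nonINS replicate 1, with 8002 CPM of Reg3g, had 604 CPM of Saa1, where Control-STAM-INS replicate 5, with 6434 CPM of Reg3g, had 1122 CPM. The ratio of Reg3b to Reg3g counts held between 2.28 and 3.33 in all 16 libraries while Reg3b ranged 4.39-fold and Reg3g 4.54-fold in CPM.

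**Figure D3:**
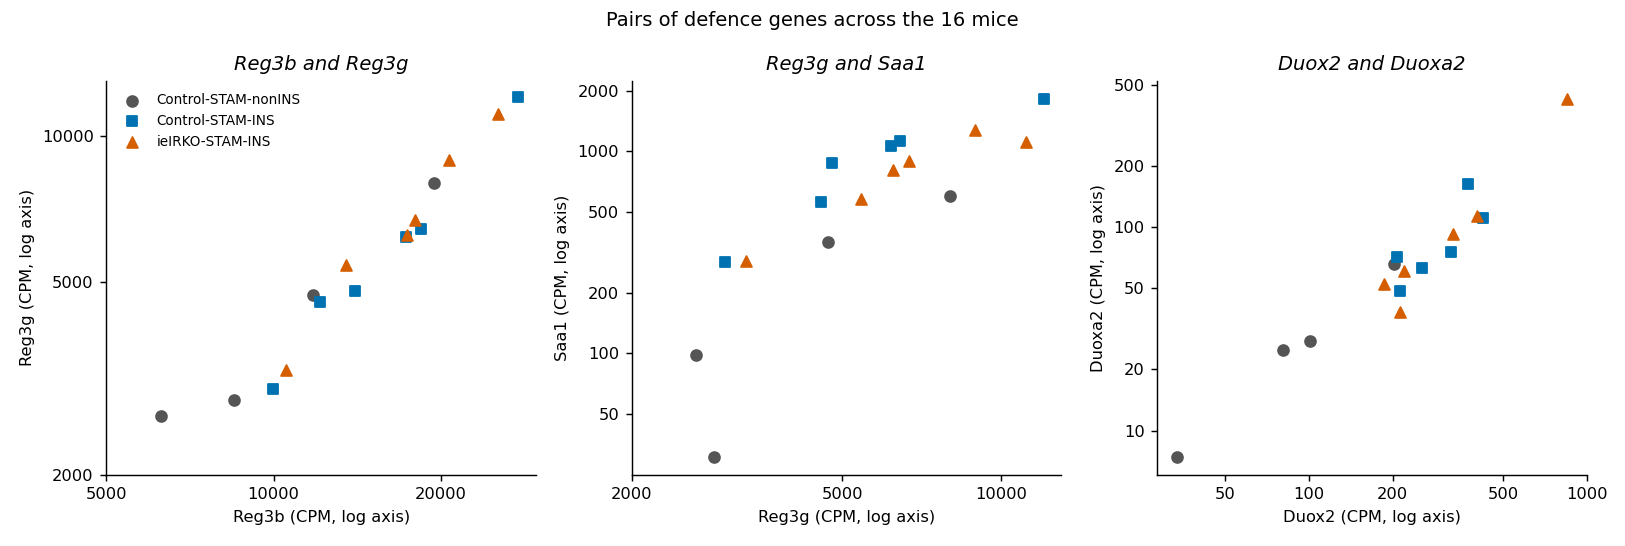
Each point is 1 mouse, placed by the CPM of 2 members on log axes and marked by group, for Reg3b with Reg3g, Reg3g with Saa1, and Duox2 with Duoxa2. The points of Reg3b and Reg3g follow a single band (r = 0.979 after removing group means), 2 mice without insulin lie low in Saa1, at 98.3 and 30.7 CPM, and ieIRKO-STAM-INS replicate 6 lies at the upper end of the oxidase pair.

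Outside the members, the genes most like each of them were sought among 10801 genes, by Pearson's r of log2 CPM with group means removed over the 16 libraries. For Reg3b these were Dmbt1 (r = 0.891), a secreted scavenger receptor that binds bacteria, the membrane mucin Muc4 (r = 0.852) and Slc35a2 (r = 0.842), a UDP-galactose transporter. Muc4 also led for Reg3g (r = 0.896), and Slc6a14, an amino acid transporter, led for Saa1 (r = 0.869). Nlrx1, a mitochondrial NOD-like receptor, led for both Duox2 (r = 0.941) and Duoxa2 (r = 0.962), followed by Dpp9 (r = 0.931 and 0.937). Reg4 had Oaf (r = 0.818), Plekhg1 (r = 0.788) and Tmem171 (r = 0.753) as its nearest. For Nos2 these were Anks1 (r = 0.893), the interferon factor Irf7 (r = 0.863) and Bag6 (r = 0.851), for Reg3a Mphosph6 (r = 0.844), and for Pigr Herpud2 (r = 0.846). Lcn2 had too few counts for this comparison. These are the highest of many values and are a description.

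Il22 itself was seldom caught. It had 18, 2, 0 and 0 counts in the 4 Control-STAM-nonINS libraries, at most 3 in Control-STAM-INS, and 0, 3, 0, 2, 31 and 141 in the ieIRKO-STAM-INS-labelled libraries, so that it did not pass the filter on low counts and was not tested. Target genes did not follow these counts in every library. ieIRKO-STAM-INS replicate 6, with 141 counts, had the highest Duox2, Duoxa2 and, at 311 CPM, Socs3, the feedback inhibitor that Stat3 induces, and replicate 5, with 31 counts, had 141 CPM of Socs3 and the highest Reg3b and Reg3g of its group. Control-STAM-nonINS replicate 1, with 18 counts, had the highest Reg3b, Reg3g, Saa1 and Socs3 (91.2 CPM) of the mice without insulin, but its Duox2, at 101 CPM, was lower than the 203 CPM of replicate 2, with 2 counts. Control-STAM-INS replicate 6, with 3 counts, had the highest Socs3 (117 CPM) and Duoxa2 (163 CPM) of its group. Its Reg3b, at 12132 CPM, lay under the group's median of 15693 CPM. In each group, the library with the most Il22 counts thus had the highest Socs3. Control-STAM-INS replicate 3, with 0 counts, had the highest Reg3b (27553 CPM) and Reg3g (12040 CPM) of the 16 libraries. With counts this low, the relation was not tested.

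Il17a, the other cytokine, had 0, 0, 1 and 0 counts in Control-STAM-nonINS, 4 to 11 among controls with insulin and 4 to 17 in the ieIRKO-STAM-INS-labelled libraries. All 12 libraries from mice given insulin exceeded the 4 without. Il17a passed the filter on low counts only through the groups in which it was higher, so its call by edgeR (adjusted p = 0.00354) is a description. It was also called with no filter, and it was too low to be tested when Control-STAM-INS replicate 4 was left out, in the fit to the 2 groups alone and under the stricter filter. Of 15 listed IL-22 and IL-17 cytokines and receptors, 10 were tested. Apart from Il17a, 1 of the other 9 was higher with insulin, Il17rc (log2 fold change 0.45, edgeR adjusted p = 0.0254), and 1 lower, Il18, an epithelial alarm cytokine, at -1.03 (SE 0.20, edgeR adjusted p = 0.00409). Of all genes, 3.73% were higher and 6.76% lower. The call of Il17rc was lost without Control-STAM-nonINS replicate 1 or 4 or Control-STAM-INS replicate 3. The IL-22 receptor chains did not pass, with log2 fold changes with insulin of 0.66 (SE 0.36, edgeR adjusted p = 0.268) for Il22ra1 and -0.01 (SE 0.12, edgeR adjusted p = 0.982) for Il10rb. The lowest Il22ra1 level, 14.0 CPM against 33.5 to 75.4 CPM in the rest of its group, was in ieIRKO-STAM-INS replicate 5, the library low in enterocyte markers.

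Of 17 genes of JAK-STAT3 and NF-kB signalling, all tested, 0 were lower with insulin, beside 6.76% of all genes, and 1 was higher, beside 3.73%. It was Nfkbiz, an inducible IkB protein that acts in IL-17 responses, at 0.89 (SE 0.20, edgeR adjusted p = 0.00937), with levels of 49.1, 59.4, 48.9 and 27.7 CPM in the mice without insulin and 73.6 to 122 CPM in Control-STAM-INS. Stat3 stood at 0.03 (SE 0.16, edgeR adjusted p = 0.937) and Socs3 at 0.02 (SE 0.60, edgeR adjusted p = 0.991). Between the groups given insulin 0 of the 17 passed, with Socs3 at 0.97 (SE 0.53, edgeR adjusted p = 0.528).

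A wider list of 34 other epithelial genes known to respond to IL-22 or microbes had 26 tested. With insulin 1 was higher, Gsdmc2, a gasdermin of the epithelium, at 2.73 (SE 0.61, edgeR adjusted p = 0.0128), and 0 lower, beside 3.73% and 6.76% of all genes. These counts ran from 1 to 3 higher and from 0 to 2 lower when 1 library was left out, and from 0 to 6 higher under the other alternatives. The median over the 26 was 0.59 on the log2 scale, beside 0.00 over all genes. Gsdmc2 was at 7.84, 11.4, 2.96 and 0.262 CPM in the mice without insulin and at 26.6 to 52.9 CPM in Control-STAM-INS. Between the groups given insulin 0 of the 26 passed, with a median of 0.06. In the ieIRKO-STAM-INS-labelled libraries against the mice without insulin 4 were higher and 0 lower, beside 5.74% and 7.59% of all genes. The 4 were Cfi, a complement protease, at 1.48, Il18bp, which neutralizes IL-18, at 0.85, Gsdmc2 at 2.07 and Fut2, which fucosylates the epithelial surface, at 2.93 (edgeR adjusted p = 0.00980, 0.0117, 0.0363 and 0.0419). Fut2 ranged from 5.17 to 90.0 CPM in that group, highest in replicates 5 and 6. The calls of Fut2 and Gsdmc2 were each lost under 6 of 10 omissions of 1 library, those of replicates 5 and 6 among them, and the count of 4 ran from 2 to 5. Retnlb, a bactericidal goblet cell protein, had 0 counts in all 4 libraries without insulin, 0 to 20 among controls with insulin and 1 to 13 in the ieIRKO-STAM-INS-labelled libraries, and was too low to be tested.

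**Figure D4:**
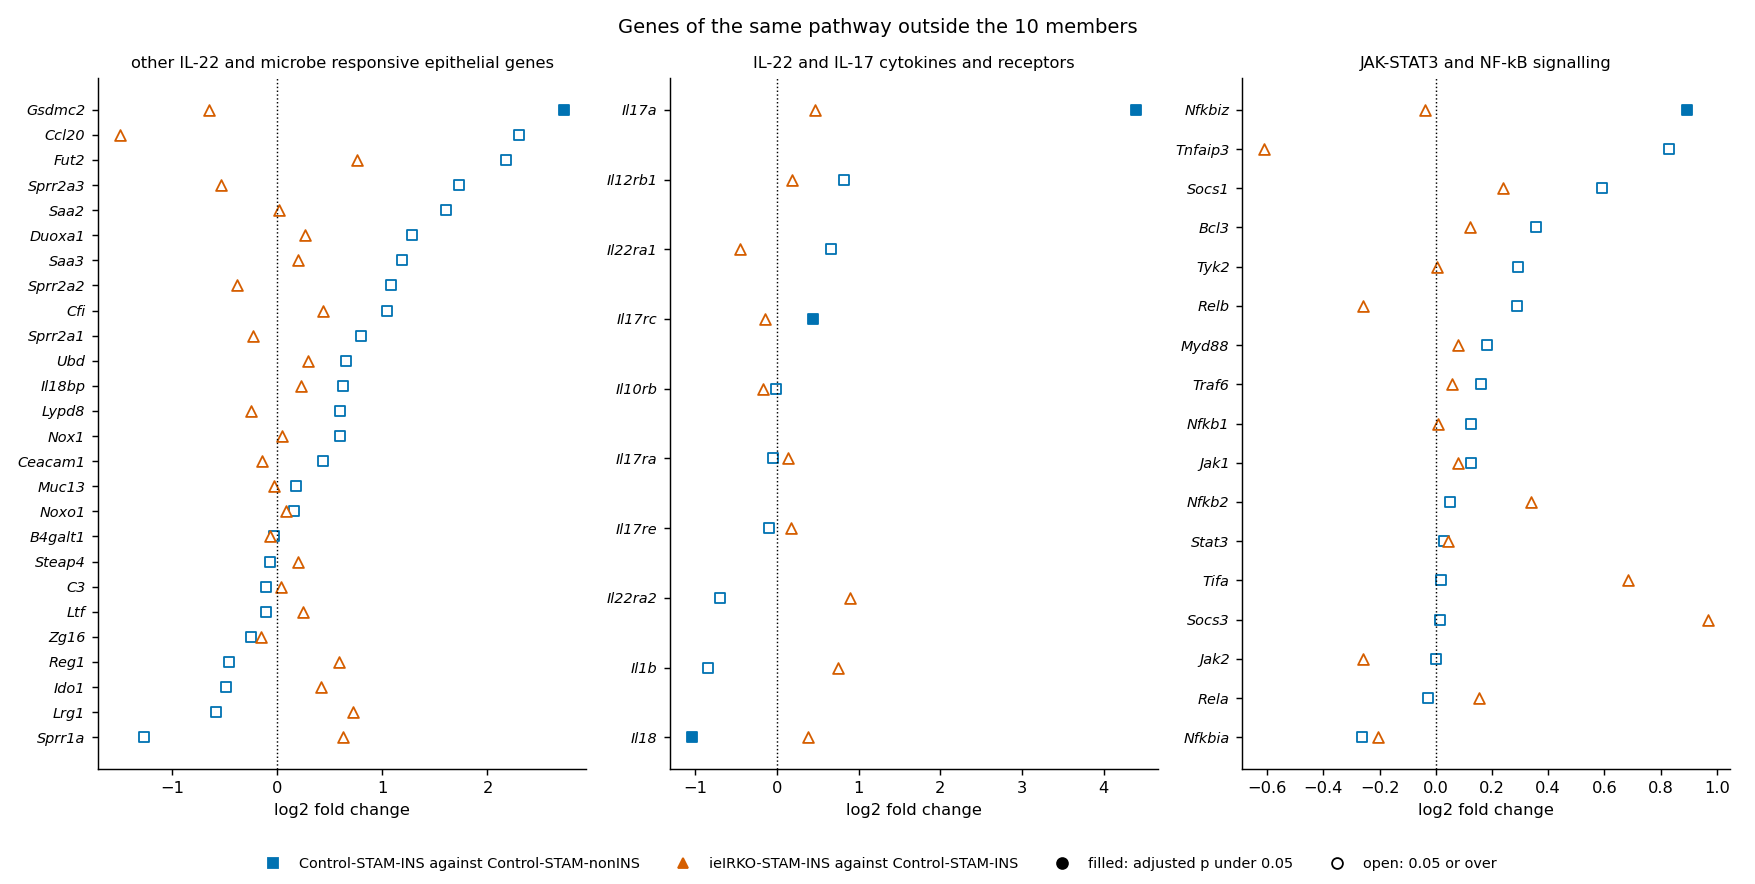
The log2 fold changes of genes outside the 10 members are shown for 3 lists, with squares for insulin against no insulin among controls and triangles for the ieIRKO-STAM-INS-labelled libraries against the insulin-treated controls, filled where the edgeR adjusted p was under 0.05. Gsdmc2, Il17a, Il17rc, Il18 and Nfkbiz are the filled squares, of which that of Il17a is a description because the gene passed the filter only through the groups with more of it, and no triangle is filled.

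Pigr works with genes of IgA production, and of 10 listed 8 were tested, of which 1 was higher with insulin, Tnfsf13b (BAFF), at 1.19 (SE 0.22, edgeR adjusted p = 0.00278), beside 3.73% of all genes. Against the mice without insulin, 5 of the 8 were higher in the ieIRKO-STAM-INS-labelled libraries, beside 5.74% of all genes. They were Tnfrsf13b, Tnfrsf17, Tnfsf13b, Jchain and Ccr10, with log2 fold changes of 0.84 to 1.70, while between the groups given insulin 0 passed. Jchain, which joins IgA dimers, ran from 693 to 1727 CPM, from 919.9 to 1505 CPM and from 1275 to 3027 CPM in the 3 groups, and its call was lost without Control-STAM-nonINS replicate 1, 2 or 3 or ieIRKO-STAM-INS replicate 5. Igha is listed at 0 in all 16 libraries. The 5 B and plasma cell markers other than Jchain summed to 25.1 to 43.7, 32.1 to 43.6 and 42.8 to 380 CPM in the 3 groups, with Cd79a at 119 and 84.1 CPM in ieIRKO-STAM-INS replicates 2 and 3 against 14.7 to 29.1 CPM in the rest of the group. The part of these cells in the IgA genes was not tested, and without those 2 libraries 6 of the 8 passed. The count of 5 ran from 2 to 6 when 1 library was left out.

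Beside 3.73% of all genes higher and 6.76% lower with insulin, 3 of 15 tested interferon response genes were higher and 0 lower. Among them were Irf1, an interferon-induced factor, at 0.81 (SE 0.15, edgeR adjusted p = 0.00262) and Gbp2, a guanylate-binding protein, at 0.83 (SE 0.18, edgeR adjusted p = 0.00728), and 0 of the 15 passed between the groups given insulin. Between the ieIRKO-STAM-INS-labelled libraries and the mice without insulin 4 were higher and 2 lower, beside 5.74% and 7.59% of all genes. The 2 were Irf7 at -0.72 and Ifngr1 at -0.35 (edgeR adjusted p = 0.0248 and 0.0363), and their calls were lost under 4 and 7 of 10 omissions of 1 library. T cell and innate lymphoid markers, whose cells release IL-22, IL-17 and interferon, had 2 of 8 tested higher with insulin, beside 3.73% of all genes. These were Cd8a at 1.33 (SE 0.26, edgeR adjusted p = 0.00341) and Cd3e at 1.47 (SE 0.42, edgeR adjusted p = 0.0336), the latter lost under 7 of 10 omissions of 1 library. Between the ieIRKO-STAM-INS-labelled libraries and the mice without insulin, 3 of the 8 were higher, beside 5.74% of all genes. These were Cd3d at 1.93, Cd3e at 1.81 and Cd8a at 1.51 (edgeR adjusted p = 0.00325, 0.00980 and 0.00132), all under each of 10 omissions, and 0 passed between the groups given insulin. Of the 8 T cell and innate lymphoid markers, 4 had log2 fold changes above 0 with insulin. Their summed level ran from 107 to 128, from 84.5 to 150 and from 79.6 to 145 CPM in the 3 groups, with medians of 127, 101 and 114 CPM. The part of this level in the Il17a counts was not tested. Of the 13 tested genes of nitric oxide and peroxide handling, which are the surroundings of Nos2 and Duox2, 0 passed in either of the first 2 comparisons. In the third, where 5.74% of all genes were higher and 7.59% lower, Prdx4, a peroxiredoxin, was higher at 0.41 and Asl, of arginine synthesis, lower at -0.32 (edgeR adjusted p = 0.0406 and 0.0477). These calls were lost under 6 and 8 of 10 omissions of 1 library.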

How the data were processed

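Total RNA of whole ileum was sequenced from 16 mice, and the authors deposited 1 table of raw read counts per gene and library, made with CLC Genomics Workbench on the mouse genome GRCm38 (mm10). The counting rule and the use of strand are not given in the sources used here, which bears on overlapping and near-identical genes. Groups came from the labels. The labels call the libraries biological replicates but number no animals, so p-values measure the spread between these libraries.

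Of 41740 genes, 22872 had a count and 15267 passed filterByExpr (minimum count 10, minimum total 15) in edgeR 4.0.16 (R 4.3.3). The 3 groups were fitted in 1 robust quasi-likelihood model with TMM scaling, and p-values were adjusted over all genes tested, with a threshold of 0.05. Intervals are called 95% and reach 1.96 SE to each side, a normal quantile that the edgeR test does not use. An interval can thus exclude 0 where the test does not pass. For Duoxa2 with insulin it ran from 0.08 to 2.94, with an unadjusted edgeR p of 0.0584. For single members, log2 CPM (prior count 2) was also compared by exact permutation of the groups, two-sided, over 210 or 924 arrangements, which cannot go below 0.00476 or 0.00216. Adjusted permutation p-values for single members use Benjamini-Hochberg adjustment over all members and comparisons. Correlations used 100000 permutations and adjustment over 45 pairs. DESeq2 1.42.0, limma 3.58.1, scipy 1.17.1 and matplotlib 3.10.9 served the alternatives, checks and plots. The fits were tested on simulated data. Positions are those of GENCODE M21, in which 97.5% of gene names were found once.

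The members, gene lists and alternatives were chosen with earlier results of these data known. Named beyond the members were genes past the threshold, at most 5 per list and comparison, the 3 nearest genes of each member, and Il22, Il22ra1, Il10rb, Stat3 and Socs3. Retnlb, Cd79a, Igha and Krt20 were named, and the libraries low in enterocyte markers singled out, after their values were seen. Some genes that the rule would name are not reported here. The alternatives were DESeq2, other normalizations and filters, the likelihood ratio test, fits to the groups compared only, the replicate number as a block, and omission of libraries.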

Additional observations from a re-analysis of the deposited data

How the results depend on the processing

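The fall of Reg4 passed in all 18 alternatives with insulin among controls (log2 fold change -2.12 to -1.83) and in all 19 between ieIRKO-STAM-INS and the mice without it (-2.10 to -1.75). The number of members changed with insulin, 1, became 4 with DESeq2 (Reg4, Duox2, Saa1 and Pigr) and 2 with the likelihood ratio test, and ran from 1 to 2 when 1 library was left out. That between ieIRKO-STAM-INS and the mice without insulin, 2, became 1 with no filter on low counts, with only the 2 groups compared, with the replicate block, and without ieIRKO-STAM-INS replicates 2 and 3 together, each time through Duox2, became 3 with DESeq2 and with the likelihood ratio test, through Duoxa2, and ran from 1 to 3 when 1 library was left out. The cause was not tested. Nos2 with insulin turned to 0.0146 with the replicate block and ran from -0.27 to 0.0414 when 1 library was left out. Between the insulin-treated groups, the same omissions gave -0.28 to 0.0169 for Reg3a (0.0814 without replicates 2 and 3 together), -0.052 to 0.29 for Reg3b, -0.0146 to 0.48 for Reg3g, -0.10 to 0.20 for Reg4, -0.15 to 0.43 for Duox2, -0.31 to 0.82 for Duoxa2 and -0.39 to 0.0853 for Saa1. Of the values of single members, 301 kept direction and side of the threshold when 1 library was left out, 5 fell short of it, 3 newly passed and 11 changed sign, and under the other alternatives these numbers were 248, 4, 6 and 2. Same-numbered libraries deviated together at most weakly, with r over 0.1 in 4 of 14 pairs (-0.0943 to 0.179). Differently numbered libraries were not compared, so these values do not settle whether the numbers pair animals. The replicate block gave 1, 0 and 1 members in the 3 comparisons. Il22 did not pass the filter on low counts, and Lcn2 rests on 27 to 171 counts per library.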
